A study of Mus musculus with 48 samples.

Results

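The genes described here are 36 cell cycle and replication genes, found by matching a fixed list of symbols to the gene names of the count table. All 36 symbols had 1 row each, among 55486 named genes. They code for the proteins that license and copy DNA (Mcm2 to Mcm7, Cdc6, Cdt1, Pcna, Rrm1, Rrm2, Tyms), the S phase cyclins (Ccne1, Ccne2), the mitotic cyclins, their kinase and transcription factor (Ccna2, Ccnb1, Ccnb2, Cdk1, Foxm1), mitotic kinases (Plk1, Aurka, Aurkb, Bub1, Bub1b), ubiquitin ligase parts (Cdc20, Ube2c) and chromosome, spindle and kinetochore proteins (Top2a, Mki67, Birc5, Kif11, Kif23, Cenpa, Cenpe, Cenpf, Tpx2, Nusap1).

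The study asked what loss of QPCTL, an enzyme that cyclises N-terminal glutamine or glutamate of proteins, does in mice and in melanoma cells. RNA was sequenced in bulk in 48 samples. The tumour cells are 12 samples of live cells without the leukocyte marker CD45, sorted 14 days after inoculation of B16F10 melanoma cells, with 6 samples from mice homozygous for the QPCTL-KO allele that carried QPCTL-KO tumours and 6 from wild-type littermates that carried QPCTL wild-type tumours. Host and tumour genotype therefore change together and cannot be told apart. The baseline organs are whole bone marrow, spleen and lymph node of mice aged 10 to 15 weeks from the same QPCTL-KO strain on C57/Bl6JR, with 4 KO and 4 wild-type samples of each. Lymph nodes of tumour-bearing mice add 6 KO and 6 wild-type samples.

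The columns of the count table carry a tissue and a running number. They give 12 tumour cell, 8 bone marrow, 8 spleen and 20 lymph node libraries. Neither the genotype nor the baseline or tumour-bearing state of a lymph node can be read from their names. Each tissue was therefore analysed with both genotypes together, the lymph node as 1 group of 20, and the genotype of the tumour cells only through the authors' deposited table.

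A cell that divides first loads the helicase of the Mcm proteins onto replication origins with the help of Cdc6 and Cdt1, and cyclin E with its kinase then helps start DNA synthesis. Cyclins A and B with Cdk1 drive entry into mitosis, and the anaphase-promoting complex with Cdc20 ends it. Transcription of most of these genes is tied to the cycle through E2F factors at the start of S phase and through the MuvB complex with B-MYB and FOXM1 in G2 and mitosis, so that resting cells hold little of their RNA. Bone marrow, where blood cell precursors divide, and a growing tumour are rich in cycling cells, whereas most lymphocytes of a resting lymph node or spleen are not in cycle.

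The promoters of 6 members are shown because they hold, or in the case of Ccne1 lack, exact matches to the short letter strings searched for here. Each is the 200 bases upstream of the start of the RefSeq transcript on GRCm38.p6, printed 5′ to 3′ on the strand of the gene. Capitals mark matches on either strand to the CCAAT box (CCAAT), the cell cycle homology region (TTTGAA) and the E2F motif (TTTCGCGC), and matches of different motifs were allowed to overlap. Only these exact letters were searched, and other forms of the motifs are not marked.
Mki67, chr7:135716380-135716579, minus strand: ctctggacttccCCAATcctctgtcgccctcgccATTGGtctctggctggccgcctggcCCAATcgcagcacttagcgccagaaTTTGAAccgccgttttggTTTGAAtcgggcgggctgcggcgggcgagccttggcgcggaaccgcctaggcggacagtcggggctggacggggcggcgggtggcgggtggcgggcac
Top2a, chr11:99024190-99024389, minus strand: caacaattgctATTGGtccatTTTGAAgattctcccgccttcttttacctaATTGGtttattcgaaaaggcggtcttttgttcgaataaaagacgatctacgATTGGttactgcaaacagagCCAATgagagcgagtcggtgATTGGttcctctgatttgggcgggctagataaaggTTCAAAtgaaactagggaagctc
Cdk1, chr10:69352913-69353112, minus strand: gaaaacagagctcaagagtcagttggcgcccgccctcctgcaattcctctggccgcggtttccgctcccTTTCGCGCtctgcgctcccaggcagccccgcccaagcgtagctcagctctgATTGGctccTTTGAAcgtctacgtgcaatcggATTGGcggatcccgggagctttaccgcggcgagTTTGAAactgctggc
Mcm5, chr8:75109309-75109508, plus strand: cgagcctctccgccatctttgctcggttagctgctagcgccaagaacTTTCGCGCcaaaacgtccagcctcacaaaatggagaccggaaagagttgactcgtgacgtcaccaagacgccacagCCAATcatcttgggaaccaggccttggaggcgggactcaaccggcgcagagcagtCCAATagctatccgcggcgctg
Mcm6, chr1:128359706-128359905, minus strand: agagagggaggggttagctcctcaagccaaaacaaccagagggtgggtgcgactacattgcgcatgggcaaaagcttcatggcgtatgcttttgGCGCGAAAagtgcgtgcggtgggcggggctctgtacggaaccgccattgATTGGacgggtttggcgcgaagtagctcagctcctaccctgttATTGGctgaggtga
Ccne1, chr7:38107491-38107690, minus strand: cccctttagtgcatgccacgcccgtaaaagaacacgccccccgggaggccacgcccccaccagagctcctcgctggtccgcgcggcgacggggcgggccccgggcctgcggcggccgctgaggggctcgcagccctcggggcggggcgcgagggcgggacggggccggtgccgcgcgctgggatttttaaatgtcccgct

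The RefSeq table held promoters of 30 of the 36 members. Mcm4, Ccna2, Tpx2, Ccne2, Foxm1 and Aurkb had no entry. In the 250 bases upstream of the start, CCAAT occurred in 24 of the 30, against 33.8% of all 32851 promoters of the table. TTTGAA occurred in 8 of the 30, against 16% of all promoters, and in 14 of the 30, against 17.9%, once the 50 bases after the start were added. TTTCGCGC occurred in the promoters of Cdk1, Mcm5 and Mcm6, against 0.256% of all promoters. Ccne1, Tyms, Cdc6, Cdt1, Birc5 and Nusap1 had none of the 3 letter strings in the 200 bases. These matches describe the letters in the window and are not evidence of binding, nor is the lack of a match evidence against it.

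Several properties of the libraries bear on what follows. The total count per library ran between 54117, in tumour cell library 4, and 637985, with a median of 302136, where the labels speak of some 18 M reads. Between 61.2% and 83.8% of a library's counts lay on the 9.01% of genes whose exons share at least 50 bases with a coding gene on the other strand. The kit marks strand, and the strand setting of the counting is not given in the sources used here. The mitochondrial gene mt-Nd6, alone among the coding genes on its strand, had a median of 5082.5 counts, against 52.75 for the coding genes of the other strand. Reads of a stranded library that were counted on the strand opposite to the gene would give such values, and whether that happened was not tested. Every level below is therefore the level of reads assigned to a gene's row, and it is uncertain how far it measures that gene's own transcripts, also for members without opposite exons. Of the 36 members, 6 have such opposite exons, namely Ccna2 (Exosc9, 510 shared bases), Ccne2 (Ints8, 609), Ube2c (Tnnc2, 592), Mcm7 (Ap4m1, 321, and Cops6, 64), Nusap1 (Oip5, 172) and Cdc20 (Elovl1, 53). For these 6, reads of the gene and of its partner cannot be told apart, and sums over members below use the other 30.

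The tissue labels were checked against marker genes. All 8 melanoma markers were detected in tumour cells and also in lymph node, and 3 of the 8 in bone marrow and in spleen. Their summed levels lay between 2442 and 6767 CPM in tumour cells (counts scaled to 1e6 per library with TMM factors). Bone marrow had 39.9 to 103 CPM, spleen 31.8 to 324 CPM and lymph node 163 to 750 CPM. Of 5 leukocyte markers, Ptprc, Cd52, Laptm5 and Cd53 had no count in any tumour cell library. Granulocyte and monocyte precursor markers, 11 of 11 detected, summed to between 16014 and 37402 CPM in bone marrow. This list holds S100a8, S100a9, Ltf and Ngp beside genes such as Mpo and Elane, so its sum does not separate precursors from mature cells. Fibroblast markers ranged between 19.5 and 2205 CPM in tumour cells, with 1408 CPM in library 2 and 2205 CPM in library 9, so cells other than melanoma cells may be present in some of these libraries. The lymph node libraries fall into 2 sets by the share of counts on genes with opposite exons, at 77.0% to 81.6% in libraries 1 to 8 and 65.8% to 73.7% in libraries 9 to 20. The 30 members without opposite exons summed to 196 to 486 CPM in the first set and 352 to 718 CPM in the second, and to 1472 to 3617 CPM and 1790 to 3059 CPM when scaled on genes without opposite exons. What the sets are cannot be read from the column names. Libraries 1 to 8 stand before the spleen columns, and libraries 9 to 20 stand between the bone marrow and tumour cell columns. The sample records run in the same order, with baseline lymph nodes before spleen and tumour-bearing ones between bone marrow and tumour cells. No label states that the columns follow the sample records. The sets were not compared, and their part in the results was not tested. Spleen libraries 5 and 6 stood apart from the other 6 spleen libraries in the cell cycle genes, and results that involve the spleen are given with and without them.

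By median, counts assigned to these genes were highest in bone marrow. Summed over the 30 members without opposite exons, the level was 647 CPM in the lowest, 1331 CPM in the median and 1738 CPM in the highest tumour cell library. Bone marrow had 1961, 2490 and 3135 CPM by the same measures. Spleen had 357, 807 and 6412 CPM, and lymph node 196, 500 and 718 CPM. Every bone marrow library lay above every tumour cell library with this scaling, though with RLE size factors the highest tumour cell library, at 1990 CPM, exceeded the lowest bone marrow library, at 1952 CPM. Likewise all but 1 tumour cell library (library 11, at 647 CPM) lay above the highest lymph node library. Mki67 alone supplied a large share, and without it the medians were 1131 CPM in tumour cells, 1685 CPM in bone marrow, 657 CPM in spleen and 431 CPM in lymph node. The order of the 4 medians was the same when libraries were scaled on genes without opposite exons only, at 5341, 9029, 3362 and 2593 CPM for tumour cells, bone marrow, spleen and lymph node. In a bulk sample, fewer cycling cells and less RNA per cell cannot be told apart.

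**Figure D1:**
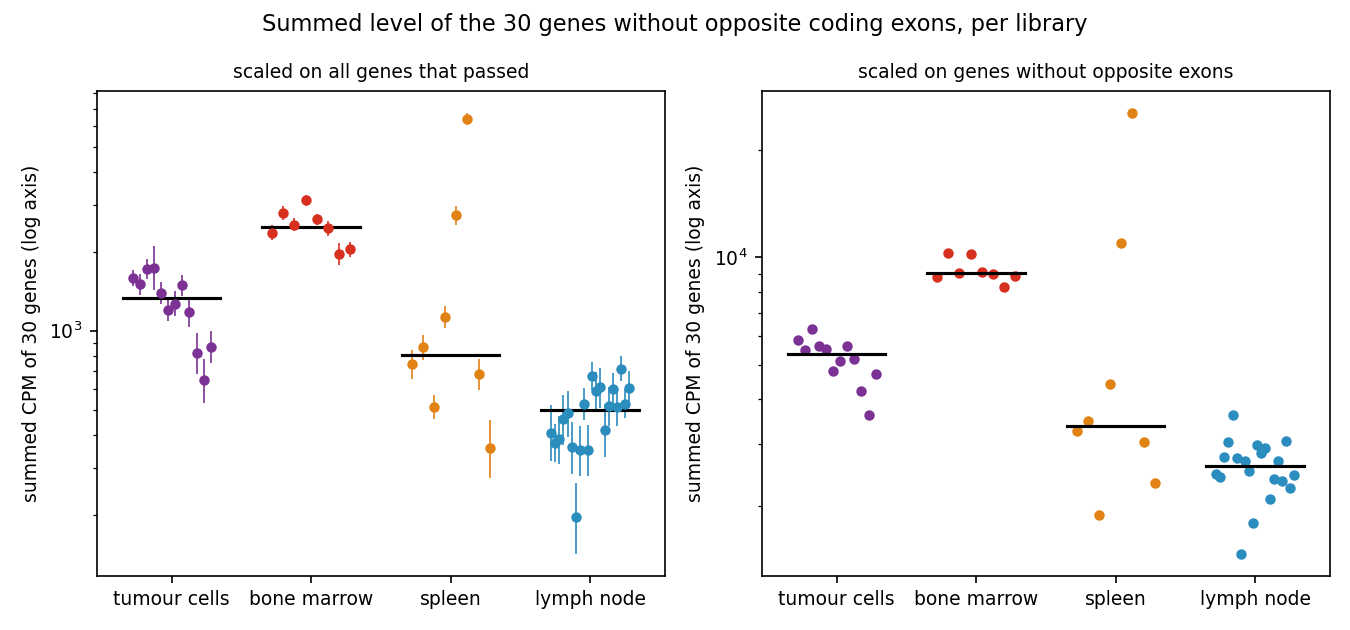
Summed level of the 30 members without opposite coding exons in each library, in CPM on a log axis, scaled on all genes (left) and on genes without opposite exons (right). Points are libraries, horizontal lines are group medians and vertical bars are exact Poisson intervals of the summed count. Bone marrow lies between 1961 and 3135 CPM on the left, above all tumour cell and lymph node libraries, while spleen spans 357 to 6412 CPM.

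Across single genes the same order recurred. Of the 30 members without opposite exons, 26 had their highest median in bone marrow and their lowest in lymph node. Bub1 and Mcm2 had their highest median in tumour cells and their lowest in lymph node. Aurka, the kinase of the spindle poles, was highest in spleen and lowest in tumour cells. Ccne1 ran the other way from nearly all, highest in lymph node and lowest in tumour cells.

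**Figure D2:**
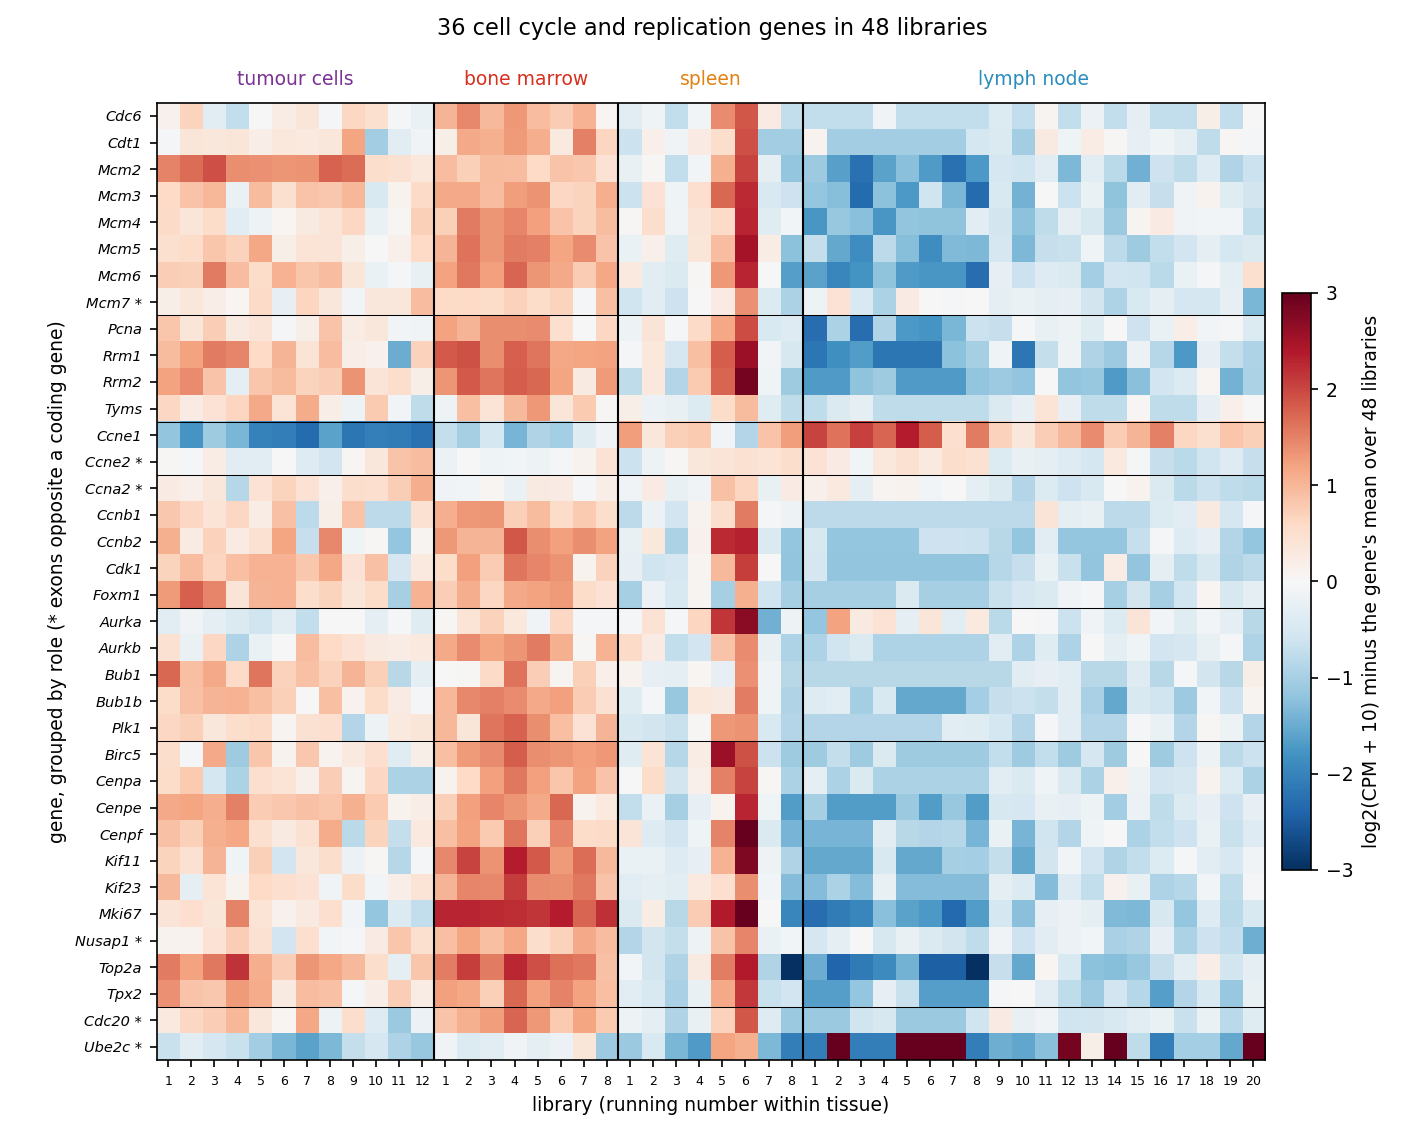
Level of each of the 36 genes in each of the 48 libraries, as log2(CPM + 10) minus the gene's mean over all libraries, with genes grouped by role and libraries by tissue. An asterisk marks exons opposite a coding gene. Bone marrow columns and spleen columns 5 and 6 are red for most genes, lymph node columns blue, and the row of Ccne1 has the opposite pattern.

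Bone marrow against lymph node gave the clearest contrast. Fitted on all 26748 genes with counts, without a filter on low values, 31 of the 36 members were higher in bone marrow and 2 were lower at an adjusted p below 0.05 (edgeR's quasi-likelihood test with Benjamini-Hochberg adjustment). Over all genes 14.6% were called higher and 17.1% lower. The median log2 fold change of the members was 2.66, against -0.08 over all genes. After the filter on low counts, 27 members were left in a table of 5504 genes. Of these members, 22 were called higher and 2 lower, where 36.5% of all genes were called higher and 30.4% lower. A gene can meet this filter through a single tissue, so members may enter through the tissue where they are high. Counts, ranks and adjusted p-values after the filter, here and below, are therefore not separate support. The libraries of the 2 groups did not overlap, with bone marrow higher, for 23 members, against 3.3% of all genes.

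Origin licensing and helicase genes were higher in bone marrow for 8 of 8 members. Mcm5, a subunit of the ring that unwinds DNA, had 56.3, 84.2 and 103 CPM in the lowest, median and highest bone marrow library. In lymph node it had 0, 11.5 and 23.4 CPM. The groups did not overlap, and the log2 fold change was 2.89 ± 0.30 (SE, adjusted p = 2.68e-12, edgeR). The other Mcm genes without opposite exons had log2 fold changes between 2.11 (Mcm3) and 2.42 (Mcm6), and Mcm7, with opposite exons, had 0.95 ± 0.19. Cdc6 and Cdt1, which load the ring, were too low for the filter, and without it their log2 fold changes were 3.02 ± 0.45 and 2.14 ± 0.38.

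The sliding clamp and nucleotide supply genes were higher for 4 of 4 members. Rrm2, the regulated subunit of ribonucleotide reductase, had 29.1, 80.4 and 106 CPM in bone marrow and 0, 4.24 and 23.8 CPM in lymph node as lowest, median and highest, without overlap. Its log2 fold change was 3.47 ± 0.41 (adjusted p = 9.11e-11, edgeR). Its partner Rrm1 had 3.16 ± 0.35. Pcna, the clamp that holds the polymerase on DNA, had 38.8, 96.4 and 122 CPM in bone marrow and 0, 24.7 and 46.4 CPM in lymph node, with some overlap, and a log2 fold change of 1.90 ± 0.28 (adjusted p = 3.49e-08, edgeR). Tyms, which makes thymidylate, had 2.07 ± 0.42 without the filter.

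Of the mitotic cyclins with their kinase and transcription factor, 4 of 5 were higher in bone marrow. Cdk1, the kinase that starts mitosis, had 14.6, 36.3 and 59.8 CPM in bone marrow and 0, 2.38 and 16.8 CPM in lymph node. The lowest bone marrow library lay within the lymph node range, and the log2 fold change was 3.30 ± 0.41 (adjusted p = 4.05e-10, edgeR). Ccnb2, a B-type cyclin, had 3.57 ± 0.47 after the filter. Its relative Ccnb1 had 14.7, 21.4 and 33.2 CPM in bone marrow and 0, 0 and 12.4 CPM in lymph node, without overlap, and 2.70 ± 0.43 without the filter. Foxm1, a transcription factor of G2 and mitosis genes, had 17.1, 28.2 and 39.1 CPM in bone marrow, against 0, 3.07 and 10.8 CPM in lymph node, and 2.76 ± 0.39 without the filter. Ccna2 did not pass the test, at 0.33 ± 0.16 (adjusted p = 0.0578, edgeR), and is 1 of the 6 genes with opposite exons.

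Of the mitotic kinases, 4 of 5 were higher in bone marrow. Plk1, which acts from spindle assembly to cell separation, had 13.6, 26.7 and 52.6 CPM in bone marrow and 0, 0 and 8.65 CPM in lymph node. Its log2 fold change without the filter was 3.08 ± 0.40 (adjusted p = 3.1e-10, edgeR). Opposite Plk1 lies a gene model of type TEC, Gm44985, with 156 shared bases and medians of 270 CPM in bone marrow and 32.8 CPM in lymph node, so reads of the 2 rows cannot be told apart. Aurkb and Bub1 had 3.01 ± 0.37 and 2.85 ± 0.47 without the filter, and Bub1b, of the spindle checkpoint, had 2.65 ± 0.30 after it. Aurka had 23.4, 30.4 and 47.7 CPM in bone marrow and 6.03, 23.6 and 72.9 CPM in lymph node, and the difference of 0.37 ± 0.34 did not pass the test (adjusted p = 0.34, edgeR).

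Chromosome, spindle and kinetochore genes were higher for 10 of 10 members. Mki67, which coats mitotic chromosomes and is the usual marker of cycling cells, had 549, 769 and 839 CPM in bone marrow and 22.8, 59.8 and 138 CPM in lymph node. All 8 bone marrow libraries lay far above all 20 lymph node libraries, and the log2 fold change was 3.33 ± 0.36 (adjusted p = 8.07e-12, edgeR). Top2a, which untangles sister chromatids, had 135, 233 and 368 CPM in bone marrow and 0, 23 and 80.0 CPM in lymph node, with 2.98 ± 0.35. Birc5, a subunit of the chromosomal passenger complex, had the highest fold of all members that passed the filter, and also of all members without it. It had 29.1, 41.9 and 63.4 CPM in bone marrow and 0, 1.09 and 11.1 CPM in lymph node. The log2 fold change was 3.86 ± 0.46 after the filter (adjusted p = 1.4e-10, edgeR) and 3.76 ± 0.42 without it (adjusted p = 1.13e-12, edgeR). The motor proteins Kif11 and Kif23 had 3.33 ± 0.38 and 3.24 ± 0.33, and the kinetochore proteins Cenpe and Cenpf had 2.52 ± 0.37 and 2.69 ± 0.43. Tpx2, a spindle assembly factor, had 2.89 ± 0.36, Nusap1, with opposite exons, 1.60 ± 0.20, and Cenpa, the histone of centromeres, 2.69 ± 0.41 without the filter. Cdc20, the activator of the anaphase-promoting complex, had 2.73 ± 0.38 and also has opposite exons.

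Both members that were lower in bone marrow than in lymph node, Ccne1 and Ube2c, are treated in detail further on, since the same pair was lower in tumour cells. Ccne2 had 111, 119 and 174 CPM in bone marrow and 67.8, 113 and 187 CPM in lymph node, with a log2 fold change of 0.06 ± 0.18 that did not pass the test (adjusted p = 0.767, edgeR).

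Tumour cells against lymph node, which shares its lymph node libraries with the contrast above, was higher for 30 of the 36 members and lower for 2 without the filter. Over all genes, 15.1% were called higher and 21.7% lower, and the median log2 fold change was 1.62 for the members and -0.19 for all genes. After the filter, 23 of 27 members were called higher, where 39.6% of all genes were, and 2 lower, where 35.6% were. Leaving out tumour cell library 4, the smallest, gave 31 higher and 2 lower without the filter, and the share of all genes in that fit is not given here. Only Cenpe, Mcm2 and Mcm5 had tumour cell libraries that all lay above every lymph node library, against 1.94% of all genes.

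Mcm2, another helicase subunit, had the highest fold of the members that passed the filter. It had 49.3, 114 and 169 CPM in tumour cells and 0, 13.7 and 28.1 CPM in lymph node, with a log2 fold change of 2.92 ± 0.28 (adjusted p = 8.23e-14, edgeR). Mcm5 had 25.9, 39.3 and 71.5 CPM in tumour cells and 1.93 ± 0.32. The fold changes of Mcm3, Mcm4 and Mcm6 were 1.68, 1.30 and 1.76. In the loading factors, Cdc6 passed without the filter at 1.52 ± 0.53 (adjusted p = 0.0153, edgeR), and Cdt1 did not at 0.94 ± 0.42 (adjusted p = 0.0677, edgeR).

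Rrm2 had 16.4, 45.9 and 76.6 CPM in tumour cells, against 0, 4.24 and 23.8 CPM in lymph node, and a log2 fold change of 2.77 ± 0.42. Pcna had 35.9, 50.5 and 79.0 CPM in tumour cells and 1.15 ± 0.28. Rrm1 had 2.34 ± 0.35, and Tyms 1.60 ± 0.43 without the filter. All 4 clamp and nucleotide supply genes thus passed the test.

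Among mitotic genes, Cdk1 had 6.10, 31.4 and 41.1 CPM in tumour cells and a log2 fold change over lymph node of 2.90 ± 0.41 (adjusted p = 1.19e-08, edgeR). Bub1, a checkpoint kinase, had 0, 21.1 and 48.5 CPM in tumour cells and 0, 0 and 10.2 CPM in lymph node, and its 3.15 ± 0.44 was the highest of all 36 without the filter (adjusted p = 2.15e-09, edgeR). Foxm1 had 0, 26.4 and 59.9 CPM and 2.67 ± 0.38 without the filter. Ccnb1 had 0, 13.2 and 21.8 CPM and Plk1 0, 14.3 and 20 CPM in tumour cells, with 1.69 ± 0.47 and 1.73 ± 0.45. Top2a had 54.9, 162 and 344 CPM in tumour cells and 2.38 ± 0.34 (adjusted p = 1.5e-08, edgeR). Birc5 had 0, 14.6 and 35.7 CPM and 2.60 ± 0.51.

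Mki67 had 64.8, 198 and 459 CPM in tumour cells, against 22.8, 59.8 and 138 CPM in lymph node, and a log2 fold change of 1.32 ± 0.35 (adjusted p = 0.00074, edgeR). Aurka had 11.4, 19.1 and 26.1 CPM in tumour cells, against 6.03, 23.6 and 72.9 CPM in lymph node, and the difference of -0.39 ± 0.35 did not pass the test (adjusted p = 0.32, edgeR). Tumour cell libraries 10, 11 and 12 had the lowest sums of the 30 members, at 824, 647 and 870 CPM, where the other 9 had 1181 to 1738 CPM. The same 3 libraries had the lowest melanoma marker sums, at 2620, 2442 and 2573 CPM against 4231 to 6767 CPM, and the highest shares of counts on genes with opposite exons, at 81.2%, 83.2% and 83.8% against 61.2% to 76.2%. Scaled on genes without opposite exons, their member sums were 4222, 3605 and 4694 CPM, against 4810 to 6302 CPM in the other 9. The part of these shares in the result was not tested.

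**Figure D3:**
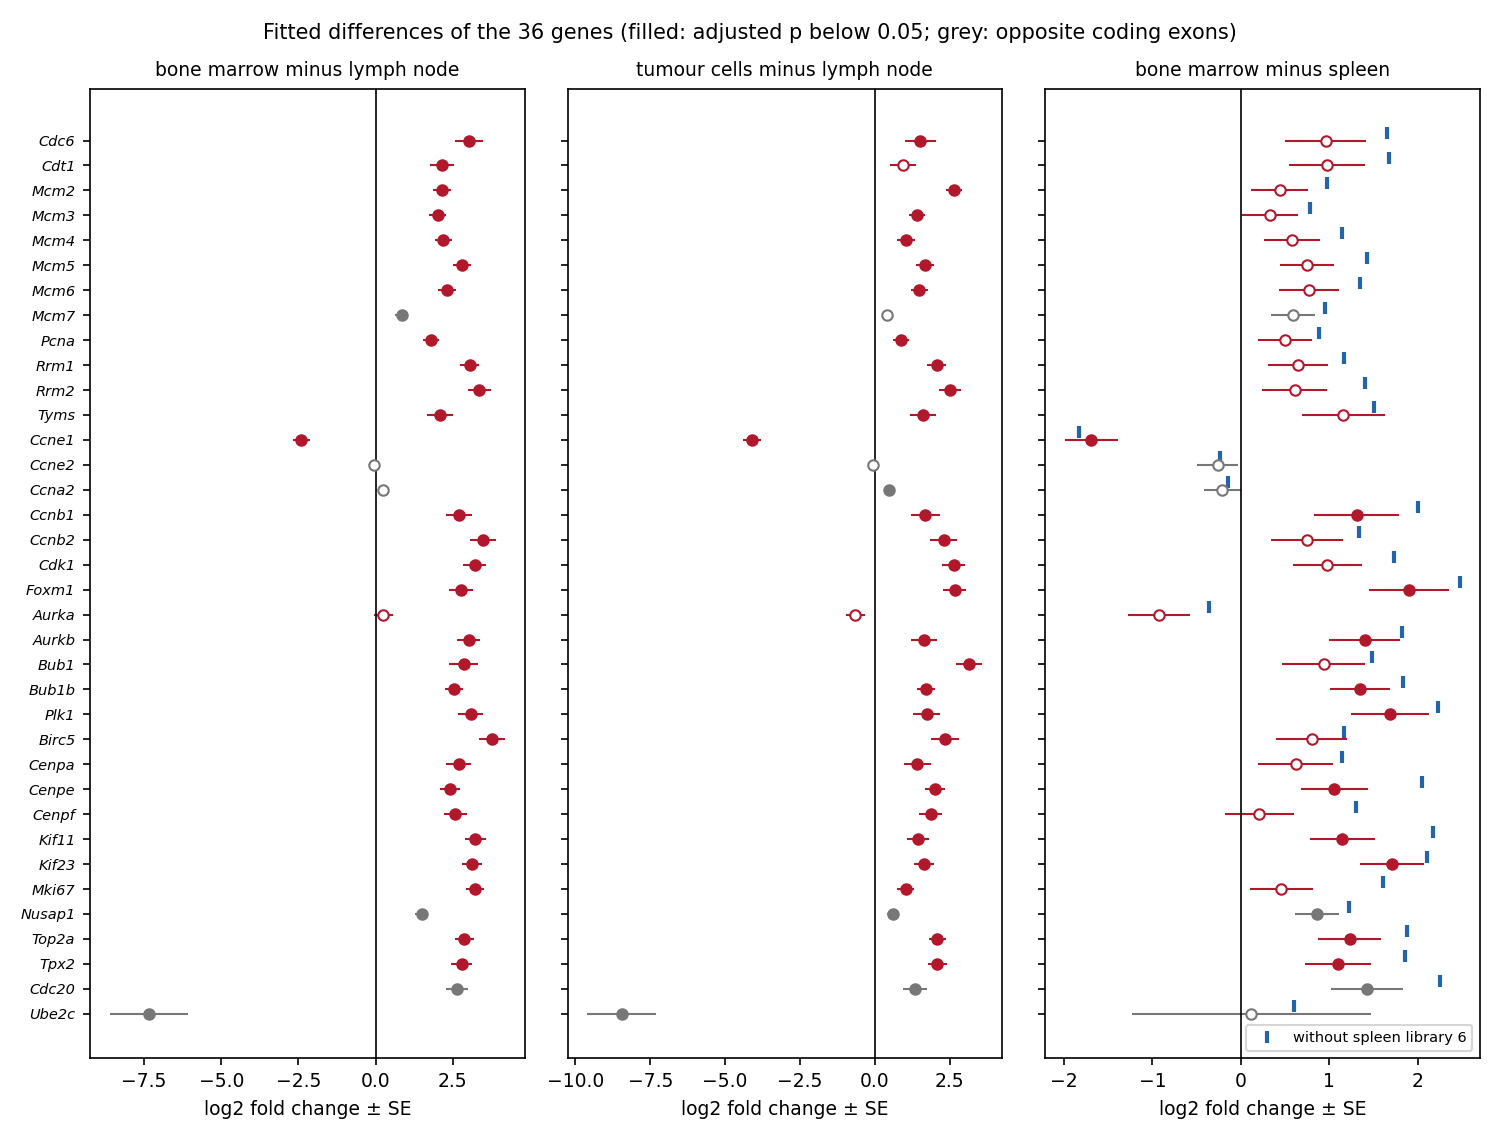
Log2 fold change with its SE for each of the 36 genes in 3 contrasts, fitted without a filter on low values. Filled points have an adjusted p below 0.05, grey marks opposite coding exons, and blue ticks in the right panel give the value without spleen library 6. Most points lie right of 0, Ccne1 lies left of 0 in every panel, and the blue ticks in the right panel lie right of the points for 35 genes.

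Set directly against bone marrow, tumour cells were lower for 22 of the 36 members and higher for 0 without the filter (edgeR's quasi-likelihood test). Over all genes, 17.8% were called lower and 13.1% higher. At an unadjusted p below 0.05 (edgeR) 0 members were higher, and DESeq2 after the filter also called 0 higher. The shares of all genes under these last rules are not given here. The median log2 fold change was -0.91. After the filter, 13 of 27 were lower, where 36.1% of all genes were, and 2 higher, where 31.9% were. Mki67 fell most among the members that passed the filter, by 2.0 ± 0.41 on the log2 scale (adjusted p = 2.03e-05, edgeR), with all 12 tumour cell libraries below all 8 bone marrow libraries. It was the only member without overlap in that direction, against 6.34% of all genes.

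By role and without the filter, tumour cells were lower than bone marrow for 5 of 8 licensing and helicase genes, 3 of 4 clamp and nucleotide genes, 6 of 10 chromosome and spindle genes and 4 of 5 mitotic kinases. Kif11 and Kif23 fell by 1.64 ± 0.38 and 1.34 ± 0.32 after the filter, Birc5 by 1.26 ± 0.41 and Mcm5 by 0.96 ± 0.30. Top2a, with 162 CPM in the median tumour cell library and 233 CPM in the median bone marrow library, did not pass the test (adjusted p = 0.149, edgeR), and neither did Cdk1 (adjusted p = 0.318, edgeR). Foxm1 had nearly equal medians of 26.4 CPM in tumour cells and 28.2 CPM in bone marrow, with a log2 fold change of -0.09 ± 0.34 without the filter.

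Mcm2 and Ccna2 were the 2 members called higher in tumour cells than in bone marrow after the filter, and neither call was stable. Mcm2 had 49.3, 114 and 169 CPM in tumour cells and 53.9, 74.0 and 81.0 CPM in bone marrow, with a log2 fold change of 0.66 ± 0.30 (adjusted p = 0.0479, edgeR), and without the filter 0.49 ± 0.28 (adjusted p = 0.205). Ccna2 had 0.40 ± 0.18 (adjusted p = 0.0411, edgeR), and without the filter 0.24 ± 0.19 (adjusted p = 0.388). The count of 2 became 1 without tumour cell library 4, without spleen library 5 or without spleen library 6, and 0 without lymph node library 2, all of which enter the shared fit.

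Ccne1, cyclin E1, was the clearest exception. It had 3.81, 6.65 and 22.7 CPM in the lowest, median and highest tumour cell library. Bone marrow had 16.3, 29.2 and 53.9 CPM, spleen 27.3, 106 and 154 CPM, and lymph node 76.4, 127 and 344 CPM. No tumour cell or bone marrow library reached the lowest lymph node library, while spleen and lymph node overlapped. Over all genes, 3.08% had every tumour cell library and 2.19% every bone marrow library below every lymph node library. The log2 fold change was -3.85 ± 0.30 for tumour cells against lymph node (adjusted p = 4.73e-17, edgeR), -2.31 ± 0.28 for bone marrow against lymph node (adjusted p = 2.98e-10) and -1.64 ± 0.31 for bone marrow against spleen (adjusted p = 2.27e-05). Tumour cells were also lower than bone marrow, by 1.53 ± 0.37 on the log2 scale (adjusted p = 0.000283, edgeR). Spleen was lower than lymph node at -0.68 ± 0.25 (adjusted p = 0.0231, edgeR), and without spleen library 6 and without the filter that difference did not pass, at -0.58 ± 0.23 (adjusted p = 0.0913).

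The tumour cell level of Ccne1 rests on few reads, with 34 counts over 12 libraries and 1 to 10 counts in each. Within the spleen, Ccne1 was lowest in library 6, at 27.3 CPM, and next lowest in library 5, at 54.6 CPM, against 76.8 to 154 CPM in the other 6, the reverse of nearly all other members. Ccne1 has no opposite coding exons in the annotation, and the row of its relative Ccne2, whose reads cannot be told apart from those of Ints8, had medians of 129 CPM in tumour cells, 119 CPM in bone marrow, 166 CPM in spleen and 113 CPM in lymph node.

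Spleen libraries 5 and 6 stood apart from the other 6 for most members. Over the 8 spleen libraries in order of their running number, the 30 members summed to 748, 865, 514, 1129, 2754, 6412, 682 and 357 CPM. The exact Poisson interval of library 6, which covers counting error only, was 6082 to 6756 CPM. Library 6 was the highest spleen library for 31 of the 36 members, and for 29 members it lay above every bone marrow library. The share of all genes in these positions is not given here, so the counts do not set the members apart from other genes. Mki67 had 2674 CPM in library 6, 849 CPM in library 5 and 33 to 274 CPM in the other 6. Top2a had 400 CPM in library 6, 218 CPM in library 5 and 0 to 85.7 CPM in the others. Cdk1 had 86.4 CPM and 34.7 CPM, against 0 to 14.3 CPM, and Rrm2 had 227 CPM and 99.2 CPM, against 5.50 to 45.7 CPM. Birc5 was the other way round between these libraries, with 68.2 CPM in library 6 and 114 CPM in library 5, against 0 to 17.9 CPM in the others.

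Markers of erythroid cells and of granulocyte and monocyte precursors were high in the same libraries, and those of early B lymphocytes were not. The erythroid markers, 12 of 12 detected in both organs, summed to 168 to 595 CPM in bone marrow and, over the spleen libraries in the same order, to 606, 1459, 1567, 1374, 7423, 9300, 757 and 165 CPM. Granulocyte and monocyte precursor markers, 11 of 11 detected, summed to 151, 256, 106, 497, 819, 2096, 416 and 33 CPM, a sum that does not separate precursors from mature cells. Early B lymphocyte markers summed to 9.09 CPM in library 6, the lowest, and 44.7 CPM in library 5, against 25.7 to 53.8 CPM in the other 6. Mature B lymphocyte markers, 7 of 7 detected, were lowest in library 6, at 205 CPM, where the others had 407 to 1255 CPM. Library 6 had 69.7% of its counts on genes with opposite exons, within the range of the other spleen libraries. The part of these cells in the result was not tested, and the genotype of the 2 libraries cannot be read from the column names.

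**Figure D4:**
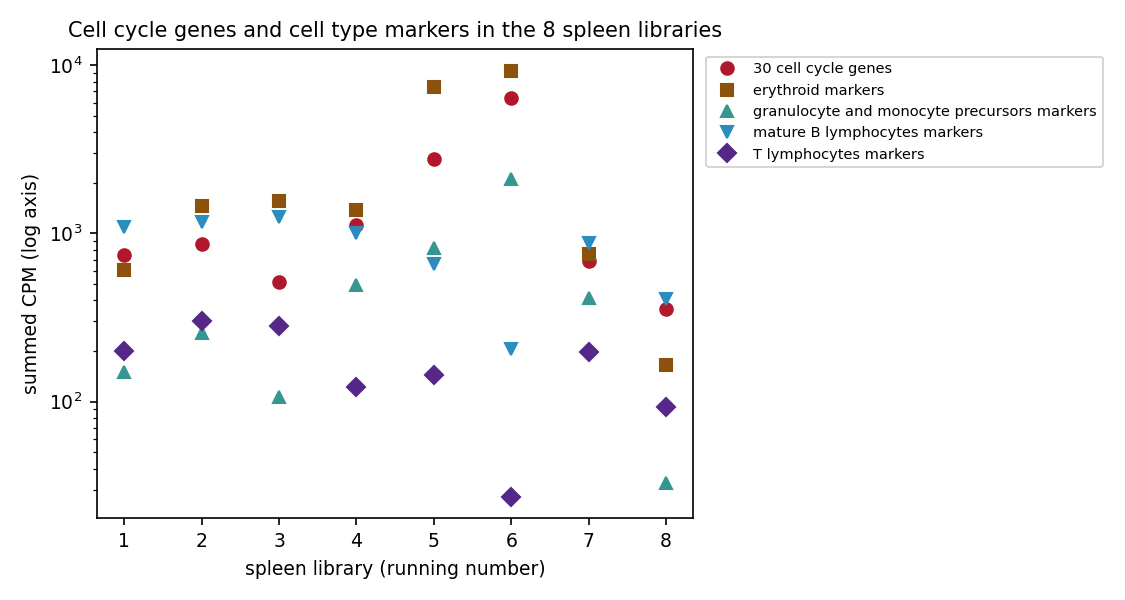
Summed CPM, on a log axis, of the 30 members without opposite exons and of 4 marker lists in each of the 8 spleen libraries. Libraries 5 and 6 hold the highest sums of the members (2754 and 6412 CPM), of erythroid markers (7423 and 9300 CPM) and of granulocyte and monocyte precursor markers (819 and 2096 CPM).

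Bone marrow against spleen depended on these libraries. With all 8 spleen libraries and without the filter, 12 of 36 members were higher in bone marrow and 1, Ccne1, was lower, where 6.22% of all genes were called higher and 9.06% lower. Without spleen library 6, 30 were higher and 1 lower, where 7.17% of all genes were called higher and 9.78% lower. Without both libraries 31 were higher and 1 lower (7.14% and 9.55% of all genes), and without library 5 alone 13 were higher and 1 lower (5.84% and 9.6%). The median log2 fold change of the members was 0.79 with all libraries, 1.42 without library 6 and 1.85 without both. Without both, every bone marrow library lay above all 6 other spleen libraries for 22 members, against 3.77% of all genes. Libraries 5 and 6 were picked because these members were high in them, so leaving them out raises the member counts by construction. The shares of all genes carry no such choice and are not a baseline for those counts. After the filter, 11 of 27 were higher with all libraries (19.4% of all genes) and 1 lower (19.9%), against 22 higher without spleen library 6 (20.4% of all genes) and 6 without tumour cell library 4 (16.8%), which enters the shared fit.

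With all 8 spleen libraries, 6 of 10 chromosome and spindle genes, 3 of 5 mitotic kinases, 2 of 5 genes of mitotic cyclins, kinase and transcription factor, 1 of 2 ubiquitin ligase genes, and 0 of the 8 licensing or 4 clamp and nucleotide genes were higher in bone marrow. At an unadjusted p below 0.05, 5 of the 8 and 1 of the 4 were higher (edgeR), and after the filter DESeq2 called 1 of 6 and 0 of 3. The shares of all genes under these rules are not given here. Without library 6 the counts were 10 of 10, 4 of 5, 4 of 5, 7 of 8 for licensing and 4 of 4 for clamp and nucleotide genes. Kif23, a motor protein of the dividing cell's midzone, had the highest fold that passed the filter, with 34.3, 55.6 and 94.2 CPM in bone marrow and 0, 11.6 and 54.6 CPM in spleen, and a log2 fold change of 1.76 ± 0.37 (adjusted p = 9.18e-05, edgeR). Foxm1 had the highest without it, 1.90 ± 0.45 (adjusted p = 0.000874, edgeR), with 17.1 to 39.1 CPM in bone marrow and 0, 3.93 and 31.8 CPM in spleen.

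Mki67 shows how far 1 library carried the result. The spleen libraries left out here were picked because members such as Mki67 were high in them. Leaving them out raises such folds by construction, so folds and adjusted p-values without them are not separate support. Without the filter, the bone marrow to spleen difference of Mki67 was 0.46 with all libraries (adjusted p = 0.442, edgeR). In the same way it was 1.61 ± 0.31 without library 6 (adjusted p = 2.07e-05, edgeR) and 2.31 ± 0.30 without both (adjusted p = 3.5e-10, edgeR). Mcm5 had 0.75, 1.43 ± 0.29 and 1.62 ± 0.30 by the same steps, Rrm2 0.61, 1.41 ± 0.36 and 1.91 ± 0.37, and Cdk1 0.98, 1.73 ± 0.39 and 2.10 ± 0.41. Aurka was the exception, at -0.93 (adjusted p = 0.0568, edgeR), -0.36 ± 0.34 and 0.22 ± 0.33, and passed the test in none of these 3. After the filter its difference was -0.89 (adjusted p = 0.0561, edgeR). Aurka passed with DESeq2 (-0.99, adjusted p = 0.0399), and in edgeR with RLE size factors (adjusted p = 0.0405). It also passed with library sizes without immunoglobulin, T cell receptor, haemoglobin and mitochondrial genes (adjusted p = 0.0329). Among genes without opposite exons it passed at -1.07 (adjusted p = 0.0266). So it did without tumour cell library 4 (adjusted p = 0.0351) or lymph node library 2 (adjusted p = 0.0265). Aurka did not pass with limma-voom (-0.08, adjusted p = 0.882), with 2 groups only (adjusted p = 0.139) or against a log2 fold of 1. Nor did it pass without spleen library 5, 6 or both. Over all alternatives after the filter, its adjusted p ran between 0.0265 and 1. Ccna2 and Ccne2, both with opposite exons, had small negative values with all libraries, at -0.16 ± 0.19 and -0.21 ± 0.22 after the filter, which did not pass the test.

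Spleen against lymph node changed in the opposite sense, which leaving out libraries picked for high member levels also brings by construction. With all libraries and without the filter, 24 of 36 members were higher in spleen and 2 lower, where 6.96% of all genes were called higher and 6.26% lower. Without spleen library 6, 15 were higher (5.55% of all genes) and 1 lower (5.84%), and without both 5 were higher (4.2%) and 1 lower (4.86%). Without library 5 alone, 24 were higher (6.0%) and 1 lower (4.81%). After the filter the count was 23 of 27 higher (23.2% of all genes) and 2 lower (20.3%) with all libraries, and 8 higher (15.7%) without both. Birc5 had the highest fold after the filter, 3.02 ± 0.53 (adjusted p = 8.05e-06, edgeR), with 0, 10.2 and 114 CPM in spleen and 0, 1.09 and 11.1 CPM in lymph node, and without both libraries it did not pass, at 1.33 ± 0.53 (adjusted p = 0.111). The 5 genes still higher without libraries 5 and 6 were Mki67 at 0.90 ± 0.25, Rrm1 at 1.47 ± 0.34, Rrm2 at 1.44 ± 0.41, Mcm4 at 0.98 ± 0.32 and Mcm5 at 1.17 ± 0.32.

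Ube2c, the ubiquitin-conjugating enzyme of the anaphase-promoting complex, was lower in every tissue than in lymph node, but through a few libraries. It had 3.81, 13.9 and 23.3 CPM in tumour cells, 9.80, 26.1 and 43.7 CPM in bone marrow, 0, 7.86 and 84.4 CPM in spleen, and 0, 10.8 and 61339 CPM in lymph node. Lymph node library 2 held 23548 of the 26702 Ube2c counts of the 20 lymph node libraries, and library 7 held 2398, or 10940 CPM. Libraries 6, 14, 5, 20 and 12 had 1384, 854, 506, 333 and 294 CPM, all above the highest library outside lymph node (84.4 CPM), and the other 13 had 37.5 CPM or less. The fitted log2 fold changes were -8.15 ± 1.47 for tumour cells (adjusted p = 2.07e-06, edgeR), -7.20 ± 1.62 for bone marrow (adjusted p = 0.000111) and -7.37 ± 1.66 for spleen (adjusted p = 0.000309). Without lymph node library 2 they were -5.94, -4.90 and -4.99. The medians of tumour cells and bone marrow lay above that of lymph node, in the other direction from these fits.

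Opposite Ube2c lies Tnnc2, a troponin of fast skeletal muscle, with 592 shared bases. Muscle markers, a list added after the values were seen and with 12 of 12 detected in lymph node, summed to 5931 CPM in lymph node library 2 and 953 CPM in library 7, against 365, 320, 245, 204 and 225 CPM in libraries 6, 14, 5, 20 and 12 and 80.8 to 241 CPM in the other 13. In tumour cells they summed to 15.2 to 67.2 CPM (6 of 12 at 0), in bone marrow to 48.9 to 88.2 CPM (5 at 0) and in spleen to 31.8 to 198 CPM (3 at 0). The row of Tnnc2 itself held 77 counts in library 2 and 9 counts in library 7. The part of muscle RNA in the Ube2c row was not tested.

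For some of the other members with opposite exons, the row of the partner followed the other cell cycle genes more closely than the member's own row. As a description over the 48 libraries, which share depth and scaling, log2 CPM of each row was correlated with the mean of the 20 members that passed the filter, have no opposite exons and are not Ccne1. The row of Ccna2 gave r = 0.38 and that of Exosc9, a subunit of the RNA exosome, gave 0.93. The row of Ccne2 gave -0.05 and that of Ints8, a subunit of the Integrator complex, gave 0.84. Nusap1 and Oip5 gave 0.75 and 0.62, Cdc20 and Elovl1 gave 0.89 and 0.64, and Mcm7 gave 0.65 against 0.66 for Cops6 and 0.28 for Ap4m1.

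The row of Exosc9 had lowest, median and highest levels of 820, 1016 and 1847 CPM in tumour cells, 1708, 1942 and 2394 CPM in bone marrow, 225, 695 and 5348 CPM in spleen and 163, 258 and 445 CPM in lymph node. Its bone marrow and lymph node libraries did not overlap, and its log2 fold change was 2.80 ± 0.24 for bone marrow (adjusted p = 4.81e-18, edgeR) and 1.83 ± 0.22 for tumour cells against lymph node. Ccna2 over the same libraries had 164, 419 and 659 CPM in tumour cells, 265, 308 and 369 CPM in bone marrow, 260, 323 and 571 CPM in spleen and 161, 240 and 378 CPM in lymph node. The Ccna2 row was higher in tumour cells than in lymph node, at 0.73 ± 0.14 (adjusted p = 5.65e-06, edgeR), and in spleen than in lymph node, at 0.50 ± 0.16 (adjusted p = 0.00894). The row of Ints8 had medians of 50.5 CPM in tumour cells, 131 CPM in bone marrow, 44.2 CPM in spleen and 24.8 CPM in lymph node. Outside the members the same held for Prc1 and Rccd1 (0.26 and 0.92), Kif20a and Cdc23 (0.11 and 0.91), Ncapg and Lcorl (0.41 and 0.89) and Chaf1a and Ubxn6 (-0.25 and 0.84). Over all 32 pairs of a member or listed gene with its partner, the partner's row had the higher r in 17, and pairs such as Tacc3 and Tmem129 (0.87 and 0.26) or Fen1 and Tmem258 (0.89 and 0.31) went the other way. Which gene's transcripts a row holds was not tested.

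**Figure D5:**
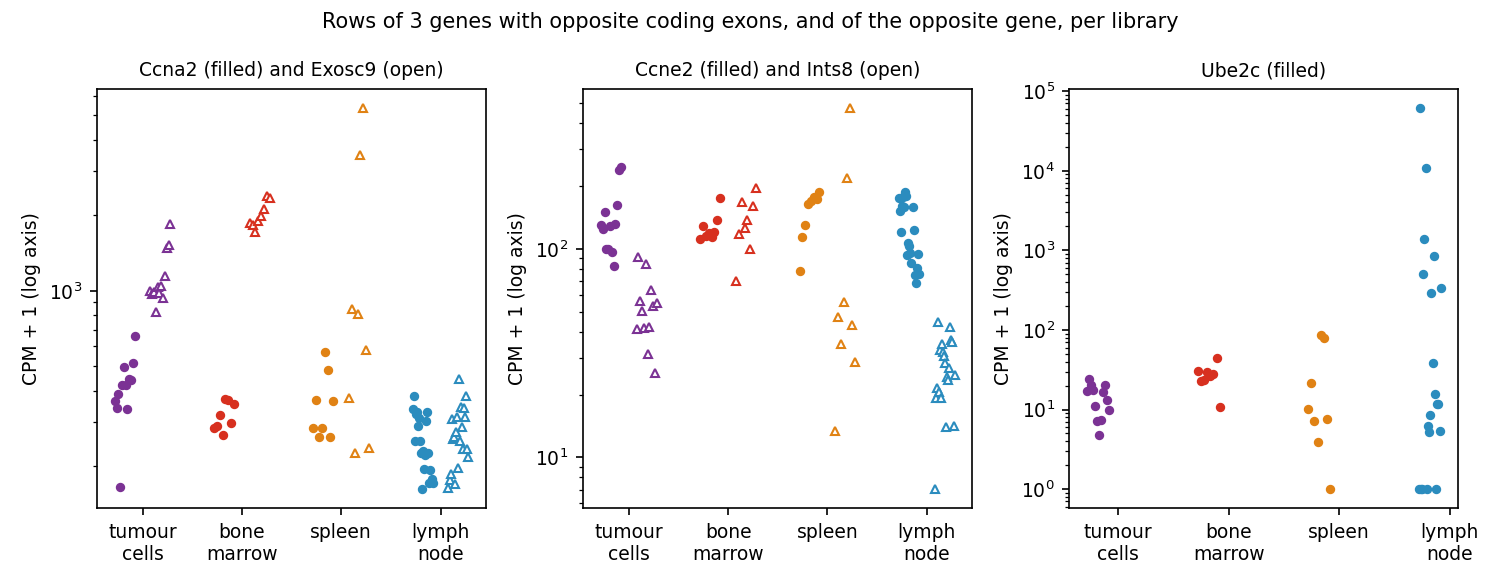
CPM + 1 per library, on log axes, of Ccna2 and its opposite gene Exosc9, of Ccne2 and Ints8, and of Ube2c. Filled circles are the member, open triangles the opposite gene. The Exosc9 and Ints8 rows are lowest in lymph node and highest in bone marrow by median, the Ccna2 row has medians of 419, 308, 323 and 240 CPM in tumour cells, bone marrow, spleen and lymph node, and Ube2c reaches 61339 CPM in 1 lymph node library.

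Genes most like the members were sought among 4154 coding genes outside the list by correlation, over the 48 libraries, with the mean standardised log2 CPM of all 36. The 8 highest were Exosc9 (0.94), Ncapd2 (0.93), Rccd1 (0.93), Knstrn (0.92), Cdc23 (0.92), Lrrc59 (0.91), Cdca3 (0.91) and Spag5 (0.90). Ncapd2, a condensin subunit, had medians of 75.0 CPM in tumour cells, 101 CPM in bone marrow, 42.7 CPM in spleen and 15.0 CPM in lymph node. Knstrn and Spag5, which act together at the mitotic spindle, had medians of 35.2 and 39.1 CPM in bone marrow and 1.08 and 1.09 CPM in lymph node. Exosc9, Rccd1, Cdc23 and Lrrc59 lie opposite Ccna2, Prc1, Kif20a and Eme1.

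Other genes of the pathway, taken from lists, were tested in the same fits, and the shares of all genes called are those given above. Of 44 further replication fork and origin genes, 30 were higher and 4 lower in bone marrow than in lymph node without the filter, and 22 were higher and 5 lower in tumour cells than in lymph node. Pola2, a subunit of the polymerase that primes DNA, had a median of 117 CPM in bone marrow and 30 CPM in spleen, with a log2 fold change of 2.15 ± 0.25 (adjusted p = 3.39e-10, edgeR). Of the genes that were lower, Rfc2, Tk1 and Gins2 had the smallest p in tumour cells against lymph node, at -4.76 ± 0.22, -1.60 ± 0.18 and -1.24 ± 0.15, and all 3 have opposite coding exons. Rfc2 and Rfc5, both with opposite exons, were also lower in bone marrow than in spleen, at -0.92 ± 0.22 and -0.72 ± 0.19.

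Of 56 further mitosis genes, 46 were higher and 1 lower in bone marrow than in lymph node, and 38 were higher and 2 lower in tumour cells than in lymph node. Against spleen, 14 of the 56 were higher in bone marrow with all spleen libraries and 35 without spleen library 6. That library was picked because the members were high in it, so this rise is not separate support. Anln, a scaffold of the cleavage furrow, had medians of 50.9 CPM in tumour cells and 2.33 CPM in lymph node, with 3.95 ± 0.39 (adjusted p = 2.9e-13, edgeR). Ncapd2 and Dlgap5 had 2.14 ± 0.29 and 2.69 ± 0.42 in the same contrast. Hmgb2, a chromatin protein of cycling cells, had medians of 783 CPM in bone marrow and 170 CPM in spleen, with 1.67 ± 0.28 (adjusted p = 1.71e-06, edgeR). Incenp had 1.57 ± 0.34, and Cdca2, too low for the filter, 2.69 without it.

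Upstream regulators were mixed. Of 23 G1 to S regulators, 13 were higher and 5 lower in bone marrow than in lymph node, and 6 were higher and 3 lower in tumour cells. Cdk2, the partner of cyclin E, had medians of 95.6 CPM in tumour cells and 7.78 CPM in lymph node, with a log2 fold change of 3.55 ± 0.23 (adjusted p = 3.11e-20, edgeR), and was also higher in bone marrow than in spleen at 1.60 ± 0.33. Cdk6 and Tfdp1, a D-type cyclin kinase and a partner of E2F, were higher in bone marrow than in spleen, at 2.31 ± 0.35 and 1.54 ± 0.33. Ccnd2 was higher in tumour cells than in lymph node at 1.26 ± 0.19, and Rb1, with opposite exons, was lower at -2.57 ± 0.17.

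Of 8 CDK inhibitors, 4 were higher and 2 lower in bone marrow than in lymph node, and 1 was higher and 2 lower in tumour cells. Cdkn1a, which codes for p21, had medians of 40.1 CPM in tumour cells and 0 CPM in lymph node, with 2.52 without the filter (adjusted p = 6.28e-09, edgeR). Cdkn2b and Cdkn1c were lower there, at -2.81 and -2.06, with medians of 0 CPM in both groups. Cdkn2d was higher in bone marrow than in spleen, at 1.30 without the filter (adjusted p = 0.023, edgeR), while Cdkn1c and Cdkn2b did not pass (adjusted p = 0.0568 and 0.117).

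Of 8 MuvB and MYB genes, 3 were higher and 1 lower in bone marrow than in lymph node, and 1 was higher and 2 lower in tumour cells. Myb, a factor of blood cell precursors, had medians of 140 CPM in bone marrow and 6.33 CPM in spleen, with 3.84 ± 0.35 (adjusted p = 1.43e-12, edgeR), and medians of 0 CPM in tumour cells and 3.18 CPM in lymph node, with -3.49 ± 0.79. Mybl2, which codes for B-MYB, was higher in tumour cells than in lymph node at 1.24 without the filter (adjusted p = 0.0387, edgeR). Rbbp4, with opposite exons, was lower in bone marrow than in spleen, at -1.11 ± 0.27, and in tumour cells than in lymph node, at -1.88 ± 0.22. Lin54 did not pass in bone marrow against spleen (adjusted p = 0.0694, edgeR).

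The QPCTL genotype of the tumour cells is addressed by the authors' deposited table, which holds a log2 fold change, p and adjusted p for 11340 genes and does not state which genotype was subtracted. All 36 members are in it. The authors' deposited table calls none of the 36 at an adjusted p below 0.05, where it calls 0.644% of all genes. At an unadjusted p below 0.05 the authors' deposited table has 5 of the 36, or 13.9%, against 16.8% of all genes, a share near that of the whole table. Qpctl itself is listed at 0.69 (log2) with adjusted p = 0.494 in the authors' deposited table and lies among genes with opposite coding exons, so its row gives no check of the direction.

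Of the 36, 27 have a negative fold change in the authors' deposited table, or 75.0%, against 58.5% of all genes. Sign goes with opposite exons in that table. Of the 30 members without opposite exons, 25 are negative in the authors' deposited table, or 83.3%, against 71.6% of the 7948 such genes, and 2 of the 6 with opposite exons are, or 33.3%, against 27.9% of such genes. The 5 members with an unadjusted p below 0.05 in the authors' deposited table are all negative, where 9.39% of all genes have such a p and a negative fold, and are Foxm1 (-1.08, p = 0.00473), Rrm1 (-0.79, p = 0.00524), Bub1 (-1.05, p = 0.0126), Mki67 (-0.49, p = 0.0242) and Mcm6 (-0.61, p = 0.0253), with adjusted p of 0.124, 0.128, 0.178, 0.229 and 0.233. For Ccne1 the authors' deposited table lists -0.96 (adjusted p = 0.386). The 9 positive members there are Aurkb (0.52), Ccne2 (0.32), Mcm7 (0.27), Ccna2 (0.24), Nusap1 (0.23), Aurka (0.15), Cdc6 (0.08), Mcm4 (0.06) and Cdt1 (0.05). In the authors' deposited table, 43 of 51 further mitosis genes are negative, or 84.3%, and 25 of 40 further replication genes, or 62.5%. Of the other lists in the authors' deposited table, 15 of 19 G1 to S regulators, 4 of 5 CDK inhibitors and 4 of 4 MuvB and MYB genes are negative. The shares of all genes and of genes without opposite exons are those given above.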

How the data were processed

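Bulk RNA-seq of 48 mouse samples was analysed from the count table and the table of tumour genotype differences deposited by the authors. Per the labels, libraries were made with the TruSeq Stranded mRNA kit and read as paired 50 bp ends. The submitters' processing notes name HISAT2, edgeR, GRCm38 and mm10. The counting program, with its strand setting, is not given in the sources used here. The count table deposited by the authors holds whole-number counts per gene for 55486 named genes, and its 1 row without a name held 0 counts. The second table deposited by the authors holds log2 fold changes and mean log2 CPM, with p-values and adjusted p-values.

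Columns were assigned to tissues by name. Planned comparisons against baseline or tumour-bearing lymph node alone became comparisons against all 20 lymph node columns, and genotype and lymph node state were not analysed here from the counts. The labels do not say for every sample that it came from a separate animal, so p-values measure the spread between samples. Sample titles such as M1 LN (QPCTL-WT) hold a number that may name a mouse, so samples of different tissues may share mice. The fit treated all libraries as independent, and any such pairing was not modelled. The 36 members and all gene lists were chosen with earlier results of these data known.

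Counts were fitted with edgeR 4.0.16 in R 4.3.3 (TMM, quasi-likelihood test, 4 tissues in 1 fit, Benjamini-Hochberg adjustment over all genes tested), after filterByExpr (minimum count 10, or 33.1 CPM, and minimum total 15), which left 5504 genes and 27 members, and again without it (26748 genes, 36 members). Fold changes are given after the filter for those 27 and without it for Aurkb, Bub1, Ccnb1, Cdc6, Cdt1, Cenpa, Foxm1, Plk1 and Tyms, and whenever the text says so. The fit was tested on simulated data. The prior count for log2 CPM was 2. DESeq2 1.42.0 and limma-voom 3.58.1 were alternatives. Exact Poisson intervals (95%) cover counting error only. Opposite coding exons sharing at least 50 bases came from GENCODE M21, in which 98.8% of the gene IDs had the table's start and end. Values are given for 11 fixed members, for the highest and lowest fold of each comparison, for members against the common direction and, of other lists, for the 3 smallest p-values in 2 comparisons.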

Additional observations from a re-analysis of the deposited data

Results flagged for a closer look

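Each value here was the highest or lowest of 8 libraries of a tissue and was separated from its nearest neighbour by a share of the group's range above Dixon's 95% critical value for 8 samples. Of 74 tests 27 passed. The critical value assumes normally distributed values and the tests share libraries, so no rate for chance alone is given and chance is not excluded. Most were spleen library 6 as the highest library. Its summed level of the 30 members without opposite exons was 6412 CPM. Among spindle and chromosome genes it had 2674 CPM of Mki67, 200 CPM of Cenpf, 191 CPM of Kif11, 146 CPM of Cenpe, 127 CPM of Tpx2 and 54.6 CPM of Kif23. Among replication genes it had 259 CPM of Mcm7, 227 CPM each of Mcm6 and Rrm2, 196 CPM of Mcm5, 182 CPM each of Mcm2 and Pcna, 155 CPM of Mcm4 and 68.2 CPM of Cdt1. Among regulators of mitosis it had 86.4 CPM of Cdk1, 72.8 CPM of Bub1b, 68.2 CPM of Cdc20, 40.9 CPM of Ccnb1, 36.4 CPM of Bub1 and 31.8 CPM of Foxm1. These values come from 1 library and share its scaling.

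In bone marrow, library 7 was the lowest for Mki67 (549 CPM), Mcm7 (92.2 CPM) and Aurkb (9.71 CPM). Library 4 was the highest for Ccnb2 (70.7 CPM) and Bub1 (45.3 CPM), and library 8 for Ccne2 (174 CPM).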

How the results depend on the processing

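No paired analysis was possible because no label ties a column's running number to a sample. Alternatives that leave out libraries, and sums scaled on genes without opposite exons, were chosen after seeing the data. Of 219 alternative values for counts and medians, 156 stayed within 1.5 times the main count or within 1 SD. Member counts below come without the share of all genes under each alternative, so they show only how the count moves.

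For bone marrow against spleen after the filter, 11 higher became 7 with DESeq2, 22 with limma-voom, 7 with library sizes without immunoglobulin, T cell receptor, haemoglobin and mitochondrial genes, 6 among genes without opposite exons, 1 against a log2 fold of 1 (glmTreat), 3 with 2 groups only and 23 without spleen libraries 5 and 6. Leaving out 1 library gave 6 to 22. The 1 lower became 2 with RLE, DESeq2, those library sizes and genes without opposite exons (1 to 2 leaving out 1 library). Without the filter, 12 higher became 0 (glmTreat) and 31 (without both), or 11 to 30 without 1 library, and 1 lower became 2 among genes without opposite exons, or 1 to 2. The edgeR count of 0 against a log2 fold of 1 tests a larger difference.

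For bone marrow against lymph node, 22 higher became 14 with 2 groups only (18 members pass that filter), and 2 lower became 1 with limma-voom and among genes without opposite exons, with and without the filter. For spleen against lymph node, 23 higher became 10 (glmTreat), 8 (without both spleen libraries) and 6 (2 groups only, 10 members pass), or 16 to 23 without 1 library. The 2 lower became 1 with limma-voom, among genes without opposite exons, with glmTreat and without both, or 1 to 2 without 1 library. Without the filter, 24 higher became 9 (glmTreat) and 5 (without both), or 15 to 26, and 2 lower became 1 among genes without opposite exons, with glmTreat and without both, or 1 to 2.

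For tumour cells against lymph node, 23 higher became 8 with 2 groups only (10 members pass), 2 lower became 1 with limma-voom and with 2 groups only, and 30 higher without the filter became 15 (glmTreat). For tumour cells against bone marrow, 2 higher became 0 with RLE, DESeq2, no filter, library sizes without the named genes and glmTreat, and 1 among genes without opposite exons and with 2 groups only, or 0 to 1 without 1 library. The 13 lower became 22 without the filter and 2 with glmTreat, and 22 without the filter became 3 with glmTreat. Scaled on genes without opposite exons, the median sums were 5341, 9029, 3362 and 2593 CPM in tumour cells, bone marrow, spleen and lymph node. The count of 0 in the authors' deposited table became 5 at an unadjusted p below 0.05.

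Of single genes, 18 values changed sign and none of these had passed the test. Ccne2 in bone marrow against lymph node became -0.04 without the filter, -0.03 with library sizes without the named genes, -0.02 with 2 groups only, -0.02 without tumour cell library 4, -0.11 without spleen library 5, -0.07 without spleen library 6 and -0.12 without both. In tumour cells against lymph node it became -0.05 without the filter and -0.02 without both, with -0.01 to 0.06 leaving out 1 library (lowest without spleen library 5), and against bone marrow -0.01 without the filter. Aurka became 0.13 in bone marrow against spleen without both spleen libraries and -0.10 against lymph node among genes without opposite exons. Ube2c became -0.01 in bone marrow against spleen with DESeq2, and Foxm1 0.01 in tumour cells against bone marrow among genes without opposite exons and without the filter. In spleen against lymph node, Plk1 became -0.01 without both libraries and without the filter, and Mcm7 became -0.19 without both, with -0.11 (without library 6) to 0.38 leaving out 1 library. The cause of these changes was not tested.

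Among genes without opposite exons the median of all genes shifted by -0.41 (log2) in bone marrow and -0.40 in tumour cells against lymph node. Totals of 54117 to 637985 counts limit the lowest members, whose lymph node medians rest on 0 to 1 reads.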
